A study of Mus musculus with 9 samples.

Results

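The genes described are 10 markers of microglia and tissue macrophages: Csf1r, Aif1, Cx3cr1, P2ry12, C1qa, C1qb, C1qc, Tyrobp, Fcer1g and Mrc1. They were taken by gene symbol from a table with 21356 distinct symbols, and all 10 were found and passed the minimum level set for testing, as did 14029 genes in all. The values come from 9 RNA sequencing libraries of midbrain tissue from C57BL/6 mouse fetuses at stage E13.5 (embryonic day), with 3 libraries per genotype. The floxed control was Gpr161f/f, which carries the conditional allele and no Cre, the Cre control was Gpr161f/+;Wnt1-Cre, and the conditional knockout (cKO) was Gpr161f/f;Wnt1-Cre. Every fetus therefore carried at least 1 floxed Gpr161 allele. Wnt1-Cre recombines in the dorsal midbrain neuroepithelium and the neural crest. Recombination in other lineages, such as blood or yolk sac, was not measured here. Gpr161 is a ciliary G protein-coupled receptor that restrains Hedgehog signalling. Its deletion was thus aimed at neural and neural crest cells and not at microglia. The comparisons ask whether microglial genes differed in a midbrain with that deletion.

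Microglia are the resident macrophages of the brain. They arise from yolk sac progenitors, enter the neural tube early in development, and clear dying cells and debris, while related macrophages sit in the meninges and along vessels. The receptor Csf1r is needed for their survival, Cx3cr1 and P2ry12 sense chemokine and nucleotide signals, Tyrobp and Fcer1g carry signals from surface receptors, and the C1q chains start the classical complement pathway.

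The libraries had been brought to a common scale before deposition, and values are given as log2 of a normalized expression value unless said otherwise. The sums of the linear values lay between 26609942 and 27496648 per library, and 1 cpm, a value scaled to the library's total and the minimum for testing, lay at a log2 value of 4.73 to 4.78. The read depth is unknown, since the table holds no counts. Midbrain genes were high in every library, with En1 between 10.50 and 10.97 and Otx2 between 11.28 and 11.58. Gpr161 itself lay between 11.74 and 11.96 in all 9 libraries and was not lower in those labelled cKO. A value summed over the gene does not separate the deleted exon from the rest, so it gives no check of the genotype labels. The samples are numbered within each genotype, and p-values measure only the spread between these samples.

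Of the 10 genes, 1 passed the test in any comparison of genotypes. Fcer1g rose 1.17-fold in the cKO over the floxed control, a comparison in which 38.3% of all genes tested were called, and no gene of the set passed between the cKO and the Cre control or between the controls. The 3 C1q chains, Tyrobp and Csf1r also lay 1.12 to 1.17-fold higher in the cKO than in the floxed control, without passing the test, and their distance to the Cre control was smaller. Aif1, Cx3cr1, P2ry12 and Mrc1 differed less from the floxed control than that. The tissue was sequenced whole, so fewer cells of a type and less RNA per cell cannot be told apart in any of these values. The plot of levels by library gives all values.

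**Figure D1:**
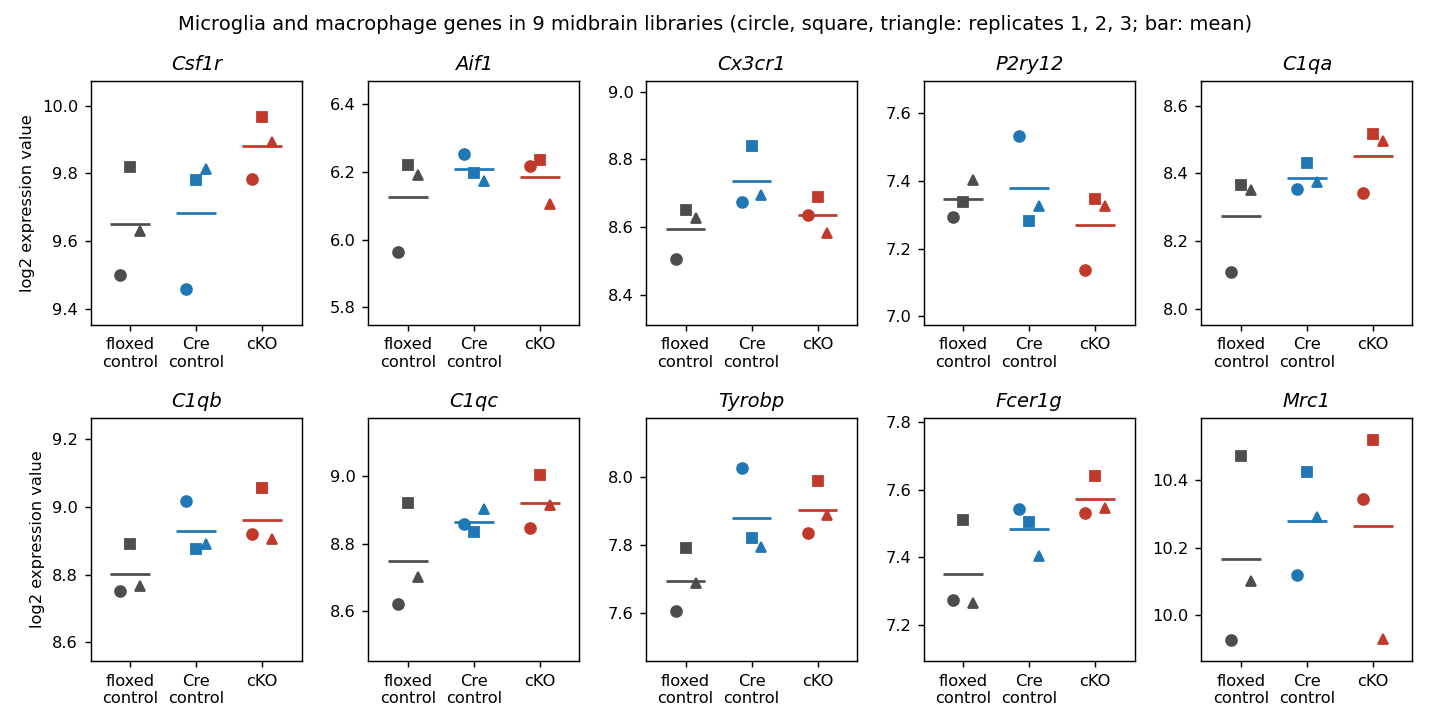
Log2 normalized expression (vertical axis) of each of the 10 genes in the 9 libraries, with the 3 genotypes side by side; points are single libraries and horizontal bars are genotype means. The genotypes overlap for most genes, while all 3 cKO libraries lie above all 3 floxed controls for C1qb, Tyrobp and Fcer1g.

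C1qa, C1qb and C1qc encode the A, B and C chains of C1q, the recognition molecule of the classical complement pathway, which microglia make in the brain. The genes lie side by side on chromosome 4 (GRCm38), in the order C1qb, C1qc, C1qa within 18675 bases, all on the minus strand. C1qb spans chr4:136880129-136886187, C1qc chr4:136889804-136893065 and C1qa chr4:136895917-136898803. Sequence upstream of the RefSeq transcription starts is shown for C1qb and C1qc, the C1q genes with an entry in the RefSeq promoter table. C1qa had no entry there. The sequence was searched for GAGGAAGT, a form of the purine-rich site that Spi1 and related ETS factors bind, and its reverse complement ACTTCCTC. Capitals mark the match, and both sequences read 5′ to 3′ on the minus strand.
C1qc, chr4:136893066-136893164: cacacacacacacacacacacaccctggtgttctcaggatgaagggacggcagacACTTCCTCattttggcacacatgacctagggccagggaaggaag
C1qb, chr4:136886201-136886450: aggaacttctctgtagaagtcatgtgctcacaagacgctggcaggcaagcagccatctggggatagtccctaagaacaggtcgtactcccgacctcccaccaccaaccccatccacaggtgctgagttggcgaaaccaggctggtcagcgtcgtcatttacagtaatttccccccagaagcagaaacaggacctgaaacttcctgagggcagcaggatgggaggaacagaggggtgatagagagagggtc
The C1qc stretch holds 1 match and the C1qb stretch none. The stretches differ in length. That of C1qb is the 250 bases before its RefSeq start. That of C1qc is 99 bases, the part of its 250 bases beyond the gene span given above, so the bases nearest its RefSeq start are not shown. Other forms of the site were not searched for. Among the 7 of 10 genes found in the RefSeq promoter table for GRCm38, C1qc was the 1 gene with a match in the 250 bases before the start. Over all such windows 2.44% held one, 802 of 32851.

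C1qb was 8.75, 8.89 and 8.76 in the floxed controls 1 to 3, 9.02, 8.88 and 8.89 in the Cre controls, and 8.92, 9.06 and 8.91 in the cKO libraries. All 3 cKO libraries lay above the floxed controls and overlapped the Cre controls. The cKO over the floxed control was 1.12-fold (95% interval 1.01 to 1.23, adjusted p = 0.0790 by limma over all genes tested), and the cKO over the Cre control was 1.02-fold (0.925 to 1.13, adjusted p = 0.769).

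C1qc was 8.62, 8.92 and 8.70 in the floxed controls, 8.86, 8.83 and 8.90 in the Cre controls, and 8.85, 9.0 and 8.91 in the cKO. C1qa was 8.11, 8.37 and 8.35, then 8.35, 8.43 and 8.38, then 8.34, 8.52 and 8.50 in the same order. In both genes the first floxed control was the lowest of the 9 libraries and the second cKO library the highest, and the genotypes overlapped. The cKO lay 1.13-fold above the floxed control for each (adjusted p = 0.0988 for C1qc and 0.0981 for C1qa, limma) and 1.04-fold and 1.05-fold above the Cre control (adjusted p = 0.655 and 0.609, limma).

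Tyrobp (DAP12) and Fcer1g (the Fc receptor gamma chain) are small transmembrane adaptors with an immunoreceptor tyrosine-based activation motif, through which receptors such as Trem2 and the Fc receptors signal. Fcer1g, at chr1:171229572-171234365, was 7.28, 7.51 and 7.27 in the floxed controls, 7.54, 7.51 and 7.40 in the Cre controls, and 7.53, 7.64 and 7.54 in the cKO. Every cKO library lay above every floxed control, and the Cre controls overlapped both. The log2 difference of the cKO from the floxed control was 0.22 (SE 0.076), a 1.17-fold rise (95% interval 1.04 to 1.31, adjusted p = 0.0412 by limma). That call was lost when any 1 of floxed control 1 (adjusted p = 0.132), floxed control 3 (0.141), cKO 1 (0.0720), cKO 2 (0.129) or cKO 3 (0.0729) was left out, by limma in each case. Against the Cre control the cKO was 1.06-fold higher (0.946 to 1.19, adjusted p = 0.466, limma).

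Tyrobp, at chr7:30413760-30417585, was 7.61, 7.79 and 7.69 in the floxed controls, 8.03, 7.82 and 7.79 in the Cre controls, and 7.84, 7.99 and 7.89 in the cKO. The lowest Cre control lay just above the highest floxed control, so that both Cre-carrying genotypes stood above the floxed control. The cKO was 1.16-fold (1.03 to 1.31, adjusted p = 0.0565) and the Cre control 1.14-fold (1.01 to 1.28, adjusted p = 0.263) over the floxed control by limma, and neither passed. The cKO over the Cre control was 1.02-fold (0.901 to 1.15).

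Csf1r, the receptor for the cytokines Csf1 and Il34, is on chromosome 18 from base 61100598 to 61132149. Its values were 9.50, 9.82 and 9.63 in the floxed controls, 9.46, 9.78 and 9.81 in the Cre controls, and 9.78, 9.97 and 9.89 in the cKO. The cKO libraries 2 and 3 were above all 6 controls and cKO 1 was level with their upper values. Csf1r had the largest difference of the set on the log2 scale between the cKO and either control, 0.23 (SE 0.10, adjusted p = 0.104, limma) from the floxed control and 0.20 (SE 0.10, adjusted p = 0.235, limma) from the Cre control. Its 95% interval reached from no difference to 1.38-fold in the first and from 0.976 to 1.35-fold in the second. Without floxed control 2 the first had an adjusted p of 0.0455 by limma and passed.

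Cx3cr1, the receptor for the neuronal chemokine Cx3cl1, spans chr9:119901616-120069879. It was 8.50, 8.65 and 8.63 in the floxed controls, 8.67, 8.84 and 8.69 in the Cre controls, and 8.63, 8.69 and 8.58 in the cKO. The highest value was in Cre control 2, and all Cre controls lay just above the floxed controls (1.10-fold, 1.0 to 1.22, adjusted p = 0.286, limma), and the cKO lay among both groups. The cKO was 1.03-fold of the floxed control (0.933 to 1.14) and 0.933-fold of the Cre control (0.845 to 1.03).

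P2ry12, the purinergic receptor that steers microglial processes toward released nucleotides, is at chr3:59216272-59262871. Its values were 7.30, 7.34 and 7.40 in the floxed controls, 7.53, 7.28 and 7.33 in the Cre controls, and 7.14, 7.35 and 7.33 in the cKO. P2ry12 was the 1 gene of the set with a lower mean in the cKO than in the floxed control, and the genotypes overlapped throughout. The fold was 0.949 (0.837 to 1.08, adjusted p = 0.484, limma) against the floxed control and 0.927 (0.818 to 1.05, adjusted p = 0.393, limma) against the Cre control. Every base of P2ry12 lies within Med12l on the opposite strand. Cx3cr1 overlaps the genes Wdr48 and Ttc21a on the opposite strand and Gorasp1, Csrnp1 and Xirp1 on its own strand. Whether the library kept strand is not given in the sources used here, so reads of overlapping genes may not be separated. For genes on the same strand, strand could not separate them. These overlaps are of whole gene spans, introns included, and overlap of exons was not examined.

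Mrc1, the mannose receptor CD206, marks perivascular and meningeal macrophages more than microglia, and spans chr2:14229392-14332057. It was 9.93, 10.47 and 10.10 in the floxed controls, 10.12, 10.42 and 10.29 in the Cre controls, and 10.34, 10.52 and 9.93 in the cKO. The lowest and highest cKO libraries were about as far apart as any pair of the 9. The pooled standard deviation within genotypes was 0.25 on the log2 scale, larger than for 98.4% of the genes tested, against a median of 0.074 over all genes. The cKO was 1.07-fold of the floxed control with an interval of 0.833 to 1.38, the widest of the set.

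Aif1 encodes Iba1, the actin-binding protein by which microglia are usually stained, and is at chr17:35170991-35176068. It was the lowest gene of the set on the log2 scale, at 5.96, 6.22 and 6.19 in the floxed controls, 6.25, 6.20 and 6.17 in the Cre controls, and 6.22, 6.24 and 6.11 in the cKO. The first floxed control stood below the other 8 libraries, which lay within 6.11 to 6.25. The cKO was 1.04-fold of the floxed control (0.931 to 1.17, adjusted p = 0.541, limma) and 0.985-fold of the Cre control (0.879 to 1.10, adjusted p = 0.867, limma).

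Per kilobase of the longest coding transcript, on the linear scale, C1qb had the highest level, 439 ± 30.4 (SD over the 9 libraries). C1qc at 383 ± 30.1, Tyrobp at 382 ± 35.1 and C1qa at 319 ± 25.1 followed. Fcer1g at 260 ± 22.4, Mrc1 at 227 ± 34.7 and Csf1r at 183 ± 21.2 were intermediate. Cx3cr1 at 89.9 ± 5.74, Aif1 at 82.6 ± 4.90 and P2ry12 at 68.9 ± 5.01 were the lowest. The ranges over libraries of neighbours in this order overlapped, except between Csf1r, whose lowest library was 150, and Cx3cr1, whose highest was 102. The complement chains and adaptors thus stood above the receptors for chemokine and nucleotide.

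Between the cKO and the floxed control, 1 of the 10 genes passed an adjusted p of 0.05, beside 38.3% of all genes tested (19.5% higher and 18.8% lower). None of the 10 also had a fold above 1.5, beside 2.92% of all genes. The cKO mean was higher for 9 of the 10, beside 52.4% of all genes, and the median log2 difference was 0.17, against 0.011 over all genes. The groups did not overlap for 3, C1qb, Tyrobp and Fcer1g, all higher in the cKO, beside 29.9% of all genes that were higher without overlap. At an unadjusted p of 0.05 limma called 5 of the 10, beside 48.1% of all genes. The count and the median rested in part on floxed control 1, without which the cKO mean was higher for 6 of the 10 and the median was 0.10, and 0 were called beside 28.3% of all genes.

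Between the cKO and the Cre control, limma called 0 of the 10, also at an unadjusted p of 0.05, beside 9.72% of all genes at the adjusted (4.86% higher and 4.85% lower) and 29.3% at the unadjusted p. No gene of the set had a fold above 1.5 as well, beside 0.563%. The cKO mean was higher for 6 of the 10, beside 53.7%, the median log2 difference was 0.028 against 0.012 over all genes, and no gene was without overlap between these groups, beside 17.8% higher in the cKO. Leaving out 1 library moved the median to between -0.017 (without cKO 2, with 4 of the 10 higher) and 0.056 (without cKO 1). Between the Cre and the floxed control, limma called 0 of the 10, beside 0.0570% of all genes (0.0499% higher and 0.00713% lower) and 0.0285% with a fold above 1.5, and 2 of the 10 at an unadjusted p, beside 17.5%. The Cre control mean was higher for 10 of 10, beside 49.6% of all genes, and Cx3cr1 and Tyrobp were higher without overlap, beside 10.7%, with a median log2 difference of 0.11 against -0.0010 over all genes. Without floxed control 1 the mean was higher for 8 of the 10 and the median was 0.041, and without floxed control 2 it was 0.17. The cKO and Cre control are compared with the same floxed control libraries, so their differences from it are not independent.

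For all 10 genes the 95% intervals of the fold lay within 0.833 and 1.38-fold between the cKO and the floxed control, within 0.771 and 1.35-fold between the cKO and the Cre control, and within 0.840 and 1.39-fold between the controls. In this fit of all 9 libraries a change of 1.5-fold, 0.585 on the log2 scale, thus lay outside every one of them. Leaving out 1 library could change that for Mrc1. Without floxed control 2 its interval reached 0.60 between the cKO and the floxed control and 0.61 between the controls. Without Cre control 1 it reached 0.596 between the controls. Low values are drawn together on the deposited scale, so folds and intervals there, above all for low genes such as Aif1, may be smaller than those of the transcripts themselves. The plot of differences shows these intervals.

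**Figure D2:**
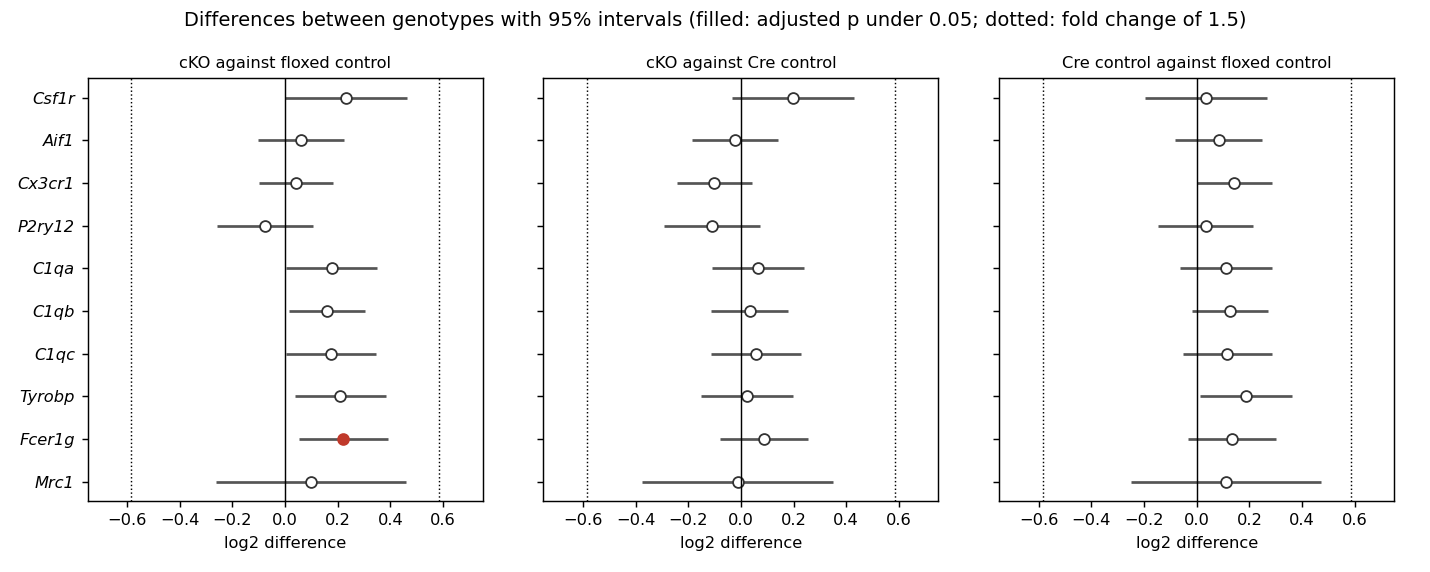
Log2 difference (horizontal axis) with its 95% interval from limma for each of the 10 genes (vertical axis), in the 3 comparisons of genotypes; filled points passed an adjusted p of 0.05 and dotted lines mark a fold of 1.5. No interval reaches a dotted line, the Mrc1 intervals are the widest, and Fcer1g between cKO and floxed control is the 1 filled point.

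Within genotypes the genes rose and fell with the library. The first floxed control was the lowest of its group for 9 of the 10 genes and the second was the highest for 9, while the second cKO library was the highest of its group for 10 of 10. The Cre controls showed no such order, with 5, 3 and 2 genes highest in libraries 1, 2 and 3. The mean of the row-centred log2 values over the 10 genes was -0.20, 0.043 and -0.082 in the floxed controls, 0.030, 0.044 and 0.012 in the Cre controls, and 0.0055, 0.14 and 0.0045 in the cKO. The spread from the lowest to the highest floxed control was thus larger than the distance between the genotypes' middle libraries. Without the second floxed control, the highest of its group for 9 genes, 5 of the 10 passed by limma between the cKO and the floxed control, beside 34.4% of all genes in that fit, namely Csf1r (adjusted p = 0.0455), C1qb (0.0479), C1qc (0.0137), Tyrobp (0.0419) and Fcer1g (0.00902). Without any 1 of the other 5 libraries compared, none of the 10 passed.

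Deviations from the genotype mean were compared between genes over the 9 libraries, as a description. All genes of a library share its depth and tissue composition, and both can differ from library to library. The Pearson r had a median of 0.59 over the 45 pairs of the set, and 41 pairs (91.1%) were above 0, against a median of 0.0068 and 50.5% above 0 over all pairs of genes tested. The closest pair was C1qb and Tyrobp with r = 0.92. The C1q chains had r = 0.71 (C1qb and C1qc), 0.72 (C1qa and C1qc) and 0.36 (C1qa and C1qb), and Tyrobp and Fcer1g had r = 0.78. P2ry12 was close to Tyrobp (r = 0.78) and apart from Csf1r (-0.26) and Mrc1 (-0.26), while Mrc1 was close to Cx3cr1 (0.80). Csf1r and P2ry12 had the lowest median r with the rest of the set, 0.31 and 0.28. The plot of deviations shows this library by library.

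**Figure D3:**
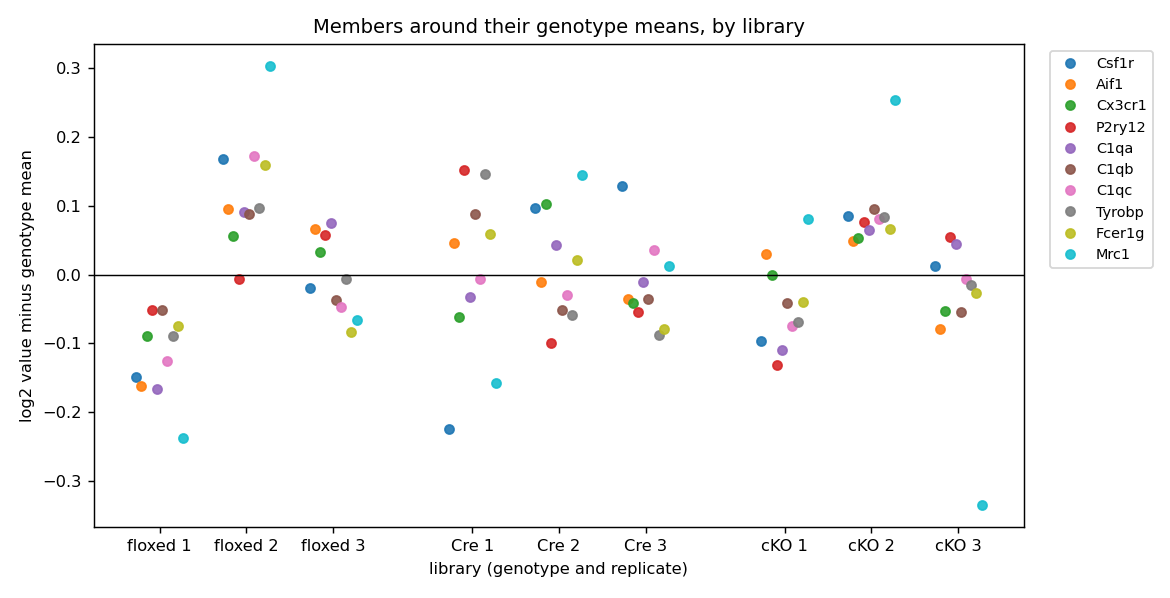
Deviation of each gene from its genotype mean, in log2 units (vertical axis), in each of the 9 libraries (horizontal axis); each point is 1 of the 10 genes. In floxed control 1 all 10 points lie below 0, and in cKO 2 all 10 lie above 0.

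The 10 genes most like the mean of the set over the 9 libraries, by Pearson r, were Fam43a (0.96), Ncf1 (0.96), Tfpi (0.95), Tm4sf1 (0.94), Wdr86 (0.94), Il13ra1 (0.94), Angpt2 (0.94), Dock5 (0.93), Fli1 (0.93) and Ggact (0.93). Ncf1 encodes a subunit of the phagocyte NADPH oxidase. Tfpi, Angpt2 and Fli1 are known from endothelium, and Fli1 also from blood cells.

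Other genes of microglia and macrophages were read from lists of the same kind. Over 4 of them (microglial identity genes, myeloid transcription factors, pan-macrophage and leukocyte genes, and border and tissue macrophage genes) with 60 genes outside the set, 53 were tested, and between the cKO and the floxed control 11 rose and 4 fell (28.3%, beside 38.3% of all genes), with a median log2 difference of 0.11. Between the cKO and the Cre control 2 rose (3.77%, beside 9.72%), with a median of 0.041, and between the controls none was called.

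Among 12 microglial identity genes, 4 rose in the cKO over the floxed control and none fell, beside 19.5% of all genes higher and 18.8% lower. Their median log2 difference was 0.090. Sall1, the transcription factor of microglial identity, which neural progenitors also express, rose by 0.46 (adjusted p = 4.51e-04, limma) and also over the Cre control, by 0.43 (adjusted p = 0.00285). Olfml3 rose by 0.65 (adjusted p = 0.00148) over the floxed control and by 0.37 (adjusted p = 0.0481) over the Cre control. The latter call was lost without any 1 of the 6 libraries compared (adjusted p up to 0.162, limma). Tmem119, a microglial surface protein also made by bone and mesenchymal cells, rose by 0.61 (adjusted p = 0.00883), and Sparc, a matrix protein of many mesenchymal and endothelial cells, by 0.38 (adjusted p = 0.0138) over the floxed control. The Sparc call was lost without floxed control 1 or 3 (adjusted p = 0.0506 and 0.0586). Siglech, Gpr34, P2ry13, Fcrls, Trem2, Slco2b1 and Tgfbr1 were not called, with log2 differences from -0.13 to 0.10.

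Of 10 myeloid transcription factors, Cebpb rose by 0.29 (adjusted p = 0.00482, limma), while Maf fell by 0.23 (adjusted p = 0.0470) and Ikzf1 fell by 0.22 (adjusted p = 0.0268) in the cKO against the floxed control. In that comparison 19.5% of all genes were called higher and 18.8% lower. The Maf call was lost without any 1 of the libraries other than floxed control 1 (adjusted p up to 0.155), and the Ikzf1 call without floxed control 1 or 3 or cKO 2 or 3 (up to 0.103). Spi1, the master regulator of the lineage, differed by 0.17 (adjusted p = 0.0570), and none of the 10 was called against the Cre control, beside 9.72% of all genes.

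Of 22 pan-macrophage and leukocyte genes tested, 4 rose and 2 fell against the floxed control, beside 19.5% of all genes higher and 18.8% lower. Their median log2 difference was 0.12. Fcgr3, an Fc receptor that signals through Fcer1g, rose by 0.33 (adjusted p = 0.00842, limma), as did Lcp1, an actin-bundling protein of leukocytes (0.33, adjusted p = 0.00420), and Lyz2, lysozyme (0.36, adjusted p = 0.0312). Unc93b1, which carries Toll-like receptors to endosomes, rose by 0.23 (adjusted p = 0.0326). Coro1a, a coronin of leukocytes that neurons also express, fell by 0.30 (adjusted p = 0.00229), and Itgam, the integrin chain CD11b, fell by 0.18 (adjusted p = 0.0462). The Itgam call was lost without any 1 of the 6 libraries compared (adjusted p up to 0.139). The Lyz2 and Unc93b1 calls were lost without any 1 of floxed controls 1 and 3 and cKO 2 and 3 (up to 0.114 and 0.110).

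Of 9 border and tissue macrophage genes tested, 2 rose against the floxed control, beside 19.5% of all genes, with a median log2 difference of 0.18. Stab1, a scavenger receptor shared with endothelium, rose by 0.47 (adjusted p = 0.00275, limma), and F13a1, coagulation factor XIII A, by 0.41 (adjusted p = 0.0298). The F13a1 call was lost without floxed control 1 or 3 or cKO 1 or 2 (adjusted p up to 0.111). Of 10 tested genes of activated and proliferation-region microglia, 5 rose and none fell, beside 19.5% of all genes higher and 18.8% lower, with a median of 0.16. Lgals1 rose by 0.84 (adjusted p = 0.00184), Cd9 by 0.42 (0.00102), Igf1 by 0.41 (0.0214), Ctsl by 0.27 (0.00273) and Cd63 by 0.19 (0.0403), and all of these are expressed by cells other than microglia as well. The Igf1 call was lost without floxed control 1 or 3 or cKO 1 or 2 (adjusted p up to 0.0841), and the Cd63 call without any 1 library other than floxed control 2 (up to 0.148). Against the Cre control Ctsl alone was called in this list, by 0.20 (adjusted p = 0.0367), which was lost without any 1 library other than Cre control 1 (up to 0.116). The plot of gene lists shows the counts and spread of each.

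**Figure D4:**
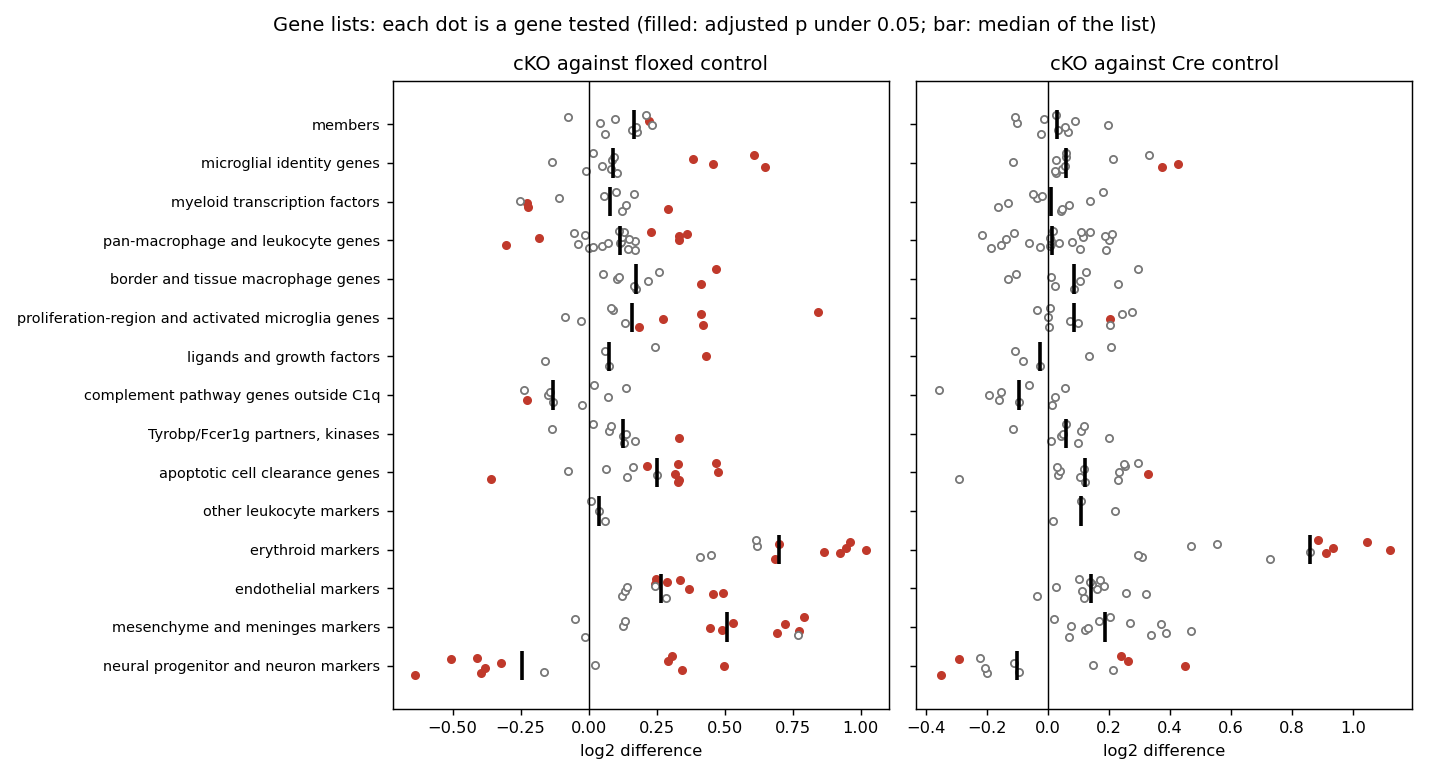
Log2 difference of each tested gene (horizontal axis) in each gene list (vertical axis), between cKO and floxed control and between cKO and Cre control, with filled points for genes at an adjusted p under 0.05 and a bar at the median of each list. The 10 microglia and macrophage genes (top row, members) lie between -0.11 and 0.23 over both comparisons, and the median of the erythroid list lies further to the right in both.

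Of 5 ligands and growth factors tested, Cxcl12, a chemokine of meninges and vessels, rose by 0.43 (adjusted p = 0.00872, limma) against the floxed control, and none was called against the Cre control. Against the floxed control 19.5% of all genes were called higher and 18.8% lower, and 9.72% were called against the Cre control. The ligands of Csf1r differed by 0.076 (Csf1, adjusted p = 0.532) and 0.059 (Il34, adjusted p = 0.474), and Cx3cl1, the ligand of Cx3cr1, by -0.16 (adjusted p = 0.177). Of 9 complement genes outside C1q, C3 fell by 0.23 (adjusted p = 0.0450) and the median was -0.13, with 3 of the 9 above 0. The C3 call was lost without floxed control 1 or 2 or cKO 1 or 3 (up to 0.143, limma). Of 9 partner receptors and kinases of Tyrobp and Fcer1g, Fcgr3 was the 1 gene called, and Trem2, which signals through Tyrobp, differed by 0.016 (adjusted p = 0.857).

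Among 13 genes of apoptotic cell clearance, 7 rose and 1 fell in the cKO against the floxed control, and the median log2 difference was 0.25. Of all genes 19.5% were called higher and 18.8% lower. The receptors Itgav (0.32, adjusted p = 0.00733, limma), Itgb5 (0.48, 0.00226), Stab1 and Axl (0.33, 0.0230) rose, as did the bridging proteins Pros1 (0.33, 0.0108) and Mfge8 (0.21, 0.0360) and the engulfment factor Dock1 (0.33, 0.00474). Elmo1, the partner of Dock1, fell by 0.36 (adjusted p = 0.0143). The Axl call was lost without floxed control 1 or 3 or cKO 1 or 2 (adjusted p up to 0.0873), the Mfge8 call without any 1 of the 6 libraries (up to 0.115), and the Elmo1 call without floxed control 3 or cKO 1 (up to 0.0571). These genes are expressed by many cell types, and Mertk, the clearance receptor most used by macrophages, differed by 0.16 (adjusted p = 0.0944, limma). Itgav was the 1 gene called against the Cre control, by 0.33 (adjusted p = 0.0264), and this was lost without Cre control 2, cKO 1 or cKO 2 (up to 0.107).

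Markers of other cell types were read in the same way. Of all genes tested, 19.5% were called higher and 18.8% lower in the cKO than in the floxed control. Between the cKO and the floxed control 7 of 12 endothelial markers rose (median log2 difference 0.27), 7 of 12 mesenchyme and meninges markers (0.51) and 7 of 11 erythroid markers (0.70), while 6 of 12 neural markers fell and 4 rose. Their summed linear levels ranged from 7864 to 10001 in the floxed controls and from 10411 to 11149 in the cKO for endothelium, from 33468 to 57322 and from 66929 to 69223 for mesenchyme, and from 153174 to 260443 and from 239128 to 461513 for erythroid genes. The 10 genes of the set summed to between 3731 and 4651 in the floxed controls, 4243 and 4617 in the Cre controls, and 4286 and 4983 in the cKO. As for the set, endothelial and mesenchymal markers were on average lower in floxed controls 1 and 3 than in floxed control 2 and highest in cKO 2. Other lists differed from this order. The mean row-centred log2 value of erythroid markers was -0.026 in cKO 2, against 0.74 and 0.76 in cKO 1 and 3. The neural list joins progenitor markers, of which 4 rose, with neuron markers, of which 6 fell, so its mean follows no single cell type. That mean was 0.013 in floxed control 2, against 0.085 and 0.11 in floxed controls 1 and 3. Without any 1 library the called endothelial markers numbered 2 (without floxed control 1 or cKO 2) to 8 (without floxed control 2), the mesenchymal 3 (without any 1 cKO library) to 8 (without floxed control 2) and the erythroid 1 (without cKO 1) to 11 (without floxed control 2 or cKO 2). Against the Cre control limma called 0 endothelial and 0 mesenchymal markers, 5 erythroid markers and 5 neural markers (3 higher and 2 lower). In that comparison 9.72% of all genes were called. Without 1 library the erythroid calls numbered 0 (without Cre control 2 or 3 or cKO 1 or 3) to 7 (without cKO 2), and the neural calls 1 (without cKO 1) to 9 (without Cre control 1). Of 16 markers of other leukocytes, 3 reached the minimum for testing and none was called. Ahsp, an erythroid marker, and C1rb and C4a of the complement list were unlisted or at 0. The part of these cell types in the differences of the microglia and macrophage genes was not tested.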

How the data were processed

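Poly-A RNA of midbrain tissue was sequenced by the authors, and 1 table of log2 values was deposited. They lie on a common scale across libraries, and low values are drawn together, by a transformation that is not given in the sources used here. The submitters' processing notes name FastQC 0.10.1, kallisto 0.46.1, DESeq2 and the build mm10. Columns were assigned to samples by genotype and replicate number. Of 27360 rows, 5764 had no gene name and were left out, and for repeated symbols the row with the highest mean was kept. A gene was tested if its linear value reached 1 cpm in 3 or more libraries.

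The 3 genotype means were estimated in 1 model of the 9 libraries by limma 3.58.1 (R 4.3.3, eBayes with a trend, two-sided, Benjamini-Hochberg over 14029 genes), and a gene was called at an adjusted p under 0.05. An exact permutation test of 3 against 3 could not go below 0.10. On simulated data between 97.5% and 99.5% of 200 genes changed by 1 on the log2 scale were recovered in the 3 comparisons, with 8 to 10 false calls. The largest difference among the 10 genes was 0.23 on that scale, so the simulation does not measure how often changes of their size are found. Its noise was drawn independently for each gene, so its false calls do not cover shifts that the genes of a library share. Positions are from GENCODE M21, promoters from RefSeq (GRCm38). The genes and lists were chosen with earlier results of these data known. All 10 genes were named, from each list the genes called, otherwise up to 3 of the highest, and the 10 most alike by Pearson r.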

Additional observations from a re-analysis of the deposited data

How the results depend on the processing

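Between the cKO and the floxed control, 0 of the 10 genes were called with no filter on low values, beside 25.9% of all genes in that fit. Libraries centred on their medians also gave 0, beside 37.9%. The 6 libraries compared alone gave 2, beside 44.3%, and no trend in eBayes gave 2, beside 38.1%. When 1 library was left out, 0 to 5 were called, beside 25.7% to 34.4% of all genes. Tyrobp was the second gene called with the 6 libraries (adjusted p = 0.0361, limma) and with no trend (0.0485). Fcer1g lost its call in 7 of 13 alternatives (adjusted p from 0.00902 to 0.141 over all 13). A minimum of 5 cpm left 9 of the 10 genes, without Aif1. In the other comparisons 0 of the 10 were called in every alternative. Of all genes tested, those called between the cKO and the Cre control numbered 873 with no filter, 437 with 6 libraries and 237 to 3292 without 1 library, and between the controls 5 with no filter, 3 with 6 libraries, 13 with no trend and 1 to 57 without 1 library. Without 1 library the sign changed for Aif1 (log2 -0.020 to 0.11), Cx3cr1 (-0.0028 to 0.070) and Mrc1 (-0.029 to 0.27) between the cKO and the floxed control. It changed for Aif1 (-0.047 to 0.018), Tyrobp (-0.019 to 0.097), C1qb (-0.015 to 0.077) and Mrc1 (-0.14 to 0.15) between the cKO and the Cre control, and for Csf1r (-0.040 to 0.15), Mrc1 (-0.0078 to 0.26) and P2ry12 (-0.043 to 0.083) between the controls. No alternative other than leaving out a library changed a sign. Alternatives for the other gene lists were added after seeing the data. Of the 29 genes called against the floxed control in the macrophage, ligand, complement, partner and clearance lists, 16 were called in every one. Calls against the floxed control were also lost with no filter (C3, Cd63, Itgam and Maf), with quantile normalization (C3, Itgam and Ikzf1), with no trend (Cd63 and Maf), with median centring (Cd63) and with the replicate block (Itgam). Against the Cre control Ctsl and Olfml3 lost theirs with no filter, Ctsl with 6 libraries and Olfml3 with no trend. With the replicate number as a block, 3 of the 10 genes were called between the cKO and the floxed control, Csf1r (adjusted p = 0.0150), C1qa (0.0386) and Fcer1g, beside 40.5% of all genes in that fit. Deviations from the group means correlated at -0.027 to 0.26 (median 0.10) between libraries of the same number and at -0.28 to 0.16 (median -0.053) between others, and 7 of 9 libraries correlated best with their own number, a hint of pairing from the data. Since not every pair with the same number was above 0.1 and the labels do not say what a number marks, the numbers were not taken as pairs. The depth is unknown, so its limit on these values could not be given.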
